A study of Mus musculus with 3 samples.

Results

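The nuclear-encoded respiratory chain genes were taken as every gene of the count tables whose symbol starts with Nduf, Uqcr, Atp5, Cox4, Cox5, Cox6, Cox7 or Cox8, together with Sdha, Sdhb, Sdhc, Sdhd and Cyc1. This gave 95 genes of the 32285 counted: 45 of complex I, 4 of complex II, 9 of complex III, 20 of complex IV and 17 of complex V. They were followed in single cells of mouse heart from 3 droplet libraries, 1 for each genotype: WT, Myh6-R404Q and Prkag2-p.R299Q. The strain was C57/B6J and the sex male throughout, and hearts were digested with collagenase, passed through a strainer of 70 µm and labelled as total cells. Both mutants are point mutation models, the former in a cardiac myosin heavy chain gene and the latter in a gene for a regulatory subunit of AMP-activated protein kinase. The title of the study calls them HCM mice. The labels used here do not say how many animals went into a library, their age, or whether they were heterozygous. Each genotype has a single library, so no difference between genotypes has a replicate check or a test. Intervals in parentheses are 95% intervals and cover counting error only. Values given as a series of 3 are in the order WT, Myh6-R404Q, Prkag2-p.R299Q.

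The respiratory chain sits in the inner mitochondrial membrane. Complexes I and II take electrons from NADH and succinate, complex III passes them to cytochrome c, complex IV hands them to oxygen, and the proton gradient built along the way drives complex V, the ATP synthase. Heart muscle relies on it for most of its ATP and is packed with mitochondria. A few subunits have alternative forms in particular tissues. Cox6a2, Cox7a1 and Cox8b are the heart and skeletal muscle forms of Cox6a1, Cox7a2 and Cox8a, Cox4i2 is an oxygen-responsive form of Cox4i1, Cox6b2 and Cox7b2 are known from testis, and Ndufa4l2 is a hypoxia-inducible relative of Ndufa4.

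Promoters are shown for 5 members picked by hand, which do not stand for the list. The first 3 carry the NRF1 palindrome, which most member promoters searched lacked. Cox6a1 and Ndufaf4 stood highest in cardiomyocyte-like cells, as did Ndufs4, Ndufs3, Sdhb and Sdhc, which are not shown. Ndufa11 was among the members higher in Myh6-R404Q cardiomyocyte-like cells, and Cox6b1 with Cox6b2 is a common form and its restricted partner. Each sequence is the 250 bases before the annotated start, read along the gene, from RefSeq on GRCm38.p6. The places are chr17:56717512-56717761 (plus strand) for Ndufa11, chr4:24897833-24898082 (plus strand) for Ndufaf4, chr5:115348959-115349208 (minus strand) for Cox6a1, chr7:30626115-30626364 (minus strand) for Cox6b1 and chr7:4753095-4753344 (minus strand) for Cox6b2. Capitals mark the NRF1 palindrome in the first 3 sequences and CCAAT, on either strand, in the others.
Ndufa11: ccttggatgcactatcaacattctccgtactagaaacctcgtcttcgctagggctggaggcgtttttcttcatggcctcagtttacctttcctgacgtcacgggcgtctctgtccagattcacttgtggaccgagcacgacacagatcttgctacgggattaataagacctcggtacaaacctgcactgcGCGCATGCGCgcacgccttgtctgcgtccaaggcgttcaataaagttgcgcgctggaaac
Ndufaf4: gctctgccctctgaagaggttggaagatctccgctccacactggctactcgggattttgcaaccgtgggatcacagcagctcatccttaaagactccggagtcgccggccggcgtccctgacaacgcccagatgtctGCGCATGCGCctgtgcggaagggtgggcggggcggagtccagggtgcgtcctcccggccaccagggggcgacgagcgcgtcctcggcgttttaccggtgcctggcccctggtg
Cox6a1: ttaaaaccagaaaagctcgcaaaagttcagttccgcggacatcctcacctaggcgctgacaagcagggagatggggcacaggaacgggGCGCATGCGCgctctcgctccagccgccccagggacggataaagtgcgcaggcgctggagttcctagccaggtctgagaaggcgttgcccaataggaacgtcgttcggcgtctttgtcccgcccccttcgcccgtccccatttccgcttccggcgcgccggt
Cox6b1: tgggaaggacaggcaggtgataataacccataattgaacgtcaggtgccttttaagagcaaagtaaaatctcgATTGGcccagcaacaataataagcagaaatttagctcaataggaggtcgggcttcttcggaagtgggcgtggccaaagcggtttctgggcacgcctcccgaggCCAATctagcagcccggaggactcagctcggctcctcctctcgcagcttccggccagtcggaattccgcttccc
Cox6b2: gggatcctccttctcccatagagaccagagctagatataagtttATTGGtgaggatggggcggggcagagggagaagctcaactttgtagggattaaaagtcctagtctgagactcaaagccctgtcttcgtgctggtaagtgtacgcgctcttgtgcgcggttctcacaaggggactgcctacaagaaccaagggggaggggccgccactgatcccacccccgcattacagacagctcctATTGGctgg

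Of the 95 members 75 had a promoter in the RefSeq table. The palindrome bound by NRF1, a regulator of many mitochondrial genes, stood in 5 of these 75 (6.67%), namely Atp5g2, Atp5k, Cox6a1, Ndufa11 and Ndufaf4, and in 0.781% of the 27025 promoters of all genes. The estrogen-related receptor sequence TCAAGGTCA was in 1 member promoter (1.33%, against 0.366% of all), the ETS sequence CCGGAAGT in 3 (4%, against 2.93%), CCAAT in 34 (45.3%, against 34.5%) and GGGCGG, the GC box, in 30 (40%, against 32.9%). Both strands were searched. The MEF2 motif and the YY1 sequence AAGATGGCG were in 0 of the 75, against 0.107% and 0.607% of all. A match is a stretch of letters, and no value here bears on binding.

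The libraries held 18033, 12662 and 7951 barcodes with 41047991, 38251499 and 31385005 UMIs (unique molecular identifiers, 1 per captured transcript), at medians of 1559, 2043 and 2537 per barcode. The Myh6-R404Q matrix holds all 3 libraries: the parts with suffix 1 (7951 barcodes) and suffix 2 (18033) repeat the Prkag2-p.R299Q and WT matrices, and 0 entries differ. The remaining 12662 barcodes, suffix 3, were taken as Myh6-R404Q by elimination, which no label states. They shared 51 barcode sequences with WT and 34 with Prkag2-p.R299Q, and those libraries shared 28 with each other. Cells were clustered without the members and without mitochondrially encoded genes. The 8 classes with at least 200 cells in each library, named from marker genes, were compared. Cardiomyocyte-like cells numbered 2118, 1378 and 1180.

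Levels are UMIs per 1000000 UMIs of a class (CPM). They come from the 3-prime ends of transcripts and were not divided by length, so each gene is compared with itself across cells. Of the 95 members 90 reached a mean of 20 CPM in at least 1 class, called measured here, and 83 did in all 8. Cox7b2, Cox8c and the assembly factors Ndufaf1, Ndufaf3 and Ndufaf8 stayed under it in each of the 8. Cox8c had 0 UMIs. Ndufa13 overlaps another counted gene, Yjefn3, on its own strand, and 30 members overlap one on the other strand, so reads of Ndufa13 may be split. Reads shared with processed pseudogenes were not tested.

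Summed over the 95 members, endothelial-like cells had the highest level of the 8 classes, at 14843, 16633 and 14976 CPM. They also had the fewest UMIs per cell of the 8, at medians of 1045.5, 1284 and 1563, and the part of depth was not tested. Cardiomyocyte-like cells had 9161, 11410 and 9692 CPM. Mesothelial-like cells, of the heart's outer surface, had 8076, 7808 and 7566 CPM. Of the 90 measured members 73 had their highest mean in endothelial-like cells, and for 32 of these the 3 libraries did not overlap with those of any other class. Neither count was made over all genes, so neither can be read as a trait of the members. This order differs from the known wealth of heart muscle in mitochondria.

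Sarcomere genes, known from muscle cells, were counted in the non-muscle classes as well. The 12 genes listed, Myh6, Tnnt2, Actc1 and Ttn among them, summed to 22852, 26896 and 23991 CPM in endothelial-like cells. They summed to 8605, 6474 and 5660 CPM in mesothelial-like cells and to 52513, 49087 and 51934 CPM in cardiomyocyte-like cells. Over the 7 non-muscle classes the summed member and sarcomere levels ran together (Pearson 0.992, 0.997 and 0.989, Spearman 1, 1 and 0.929, n = 7 classes in each library). The source of the sarcomere RNA in these classes was not tested, and free muscle RNA is only a name for it below. Cox6a2, the muscle form of subunit 6a, was at 586, 683 and 569 CPM in endothelial-like cells and at 252, 359 and 289.8 CPM in cardiomyocyte-like cells. RNA of sarcomere genes was thus present in every class, and a member's own expression outside muscle cannot be told apart from such RNA where its level follows it.

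**Figure D1:**
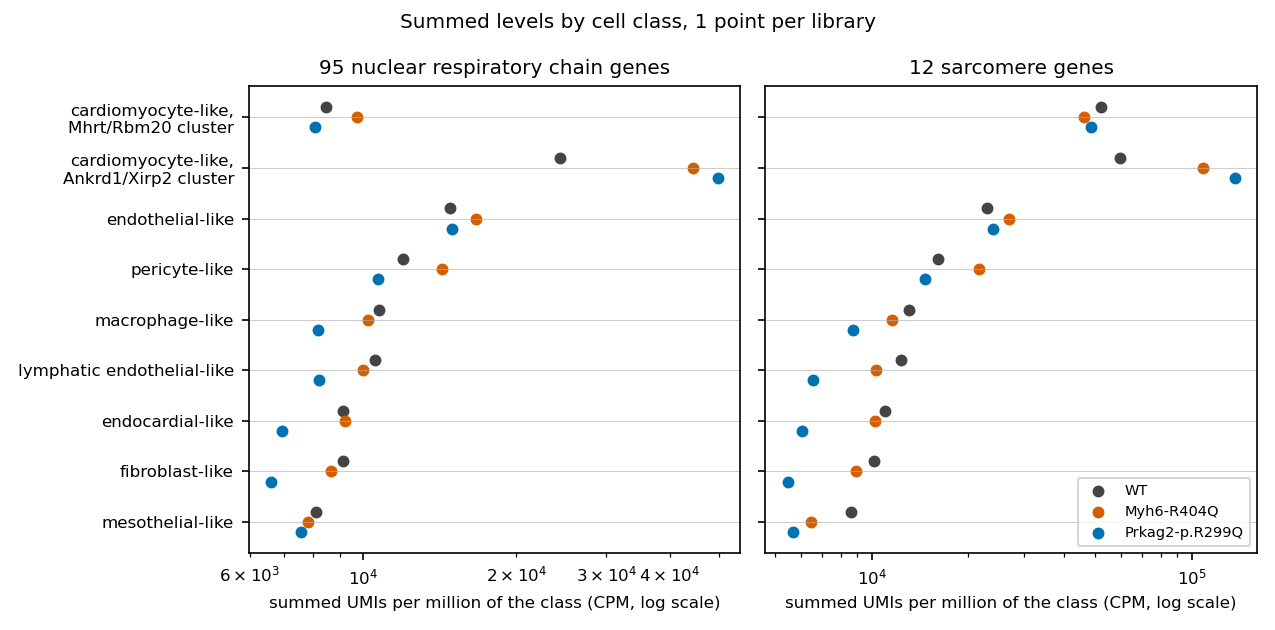
Summed level of the 95 members (left) and of 12 sarcomere genes (right) in CPM, on log axes, with 1 point per library and cell class or cluster. Both panels put the Ankrd1/Xirp2 cluster of cardiomyocyte-like cells highest, and members in endothelial-like cells lie between 14843 and 16633 CPM.

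To see which members stood above such a background, the member profile of a cluster of shallow cardiomyocyte-like cells was used. This cluster is named here for its genes Ankrd1 and Xirp2. Its profile was scaled to the Cox6a2 level of each class. This profile was chosen after its values were seen. In WT the scaled profile summed to 96.5% of the measured level in fibroblast-like, 100.2% in endothelial-like, 102% in macrophage-like and 86.9% in mesothelial-like cells. In Prkag2-p.R299Q the same shares were 74.4%, 86.6%, 80.2% and 58.5%. Cox6a2 is itself a member, so its own match was fixed and these sums are no independent check. In WT Cox6a2 stood at 36.3%, 61.1%, 45.1% and 28.8% of its cluster level in the same classes. The median sarcomere gene stood at 18.1%, 37.0%, 22.8% and 16.6%, so a profile scaled to it would sum to less. How much of the member level was muscle RNA was not tested. Among members measured in a class, few stood more than 2-fold above the scaled level in all 3 libraries of the 7 non-muscle classes. They were Cox4i2 and Ndufa4l2 in pericyte-like cells, Cox6b2 and Cox8a in mesothelial-like cells, Ndufaf6 in fibroblast-like cells, and the complex I assembly factors Ndufaf2 and Ndufaf7 in each of the 7. Some members under 20 CPM in a class were above it as well, such as Cox4i2 in endocardial-like and Ndufa4l2 in fibroblast-like cells. Ndufaf2 was at 70.1, 70.4 and 76.1 CPM in fibroblast-like cells, where the scaled profile gave 12.6, 9.88 and 5.58 CPM.

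**Figure D2:**
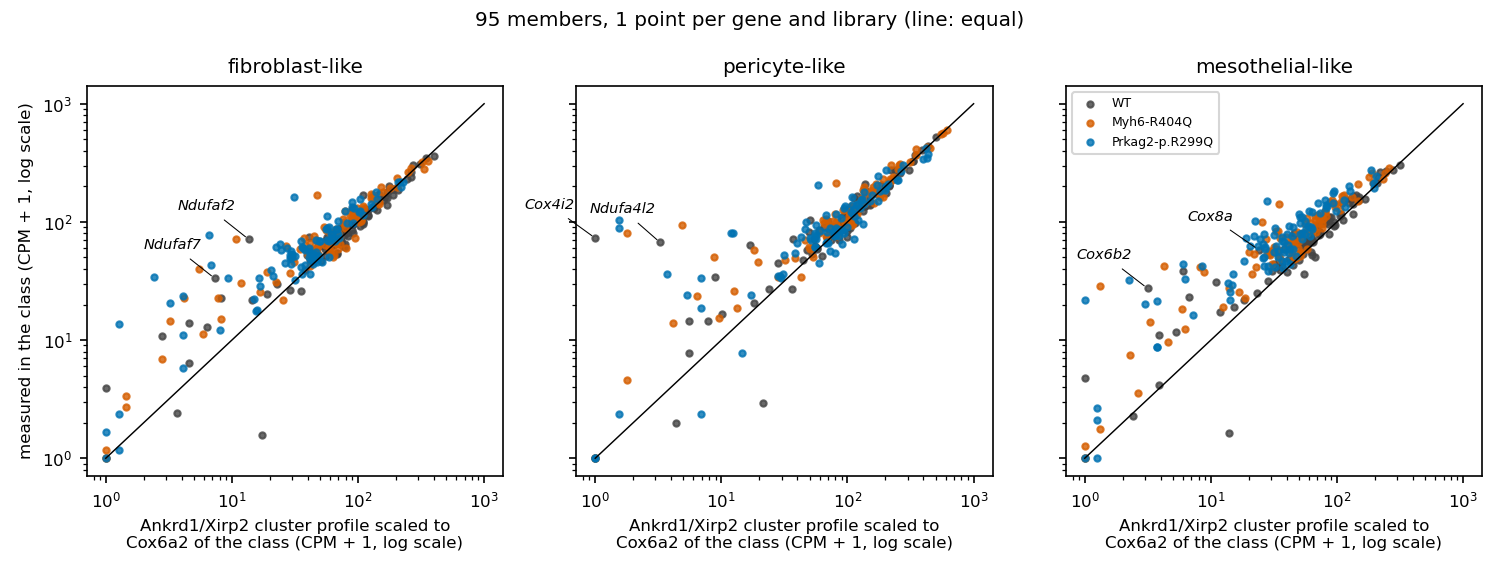
Level of each of the 95 members in fibroblast-like, pericyte-like and mesothelial-like cells (vertical) against the Ankrd1/Xirp2 cluster profile scaled to Cox6a2 of the class (horizontal), as CPM + 1 on log axes, 1 point per gene and library. Many points lie along the line of equality, and the named genes (Ndufaf2, Ndufaf7, Cox4i2, Ndufa4l2, Cox6b2 and Cox8a) lie above it.

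Measured members that were highest in cardiomyocyte-like cells in each library, with no overlap with another class, were Ndufs4, Ndufs3 and Ndufaf4 of complex I, Sdhb and Sdhc of complex II, and Cox6a1 of complex IV. The share of all genes with such a pattern was not counted. Ndufs4, an accessory subunit mutated in Leigh syndrome, was at 309, 286 and 291 CPM. Pericyte-like cells followed with 207, 213 and 203 CPM. Sdhc, a membrane anchor of succinate dehydrogenase, was at 165, 180.1 and 167 CPM, and its next highest class mean was 98.5 CPM, in endothelial-like cells. Ndufs3, a core subunit, was at 131, 126 and 118 CPM, beside a next highest mean of 83.0 CPM. Long genes were common among the members higher in cardiomyocyte-like cells. Over 86 members, the span of the gene and the log2 ratio of cardiomyocyte-like over endothelial-like cells had a Spearman correlation of 0.617 across genes, all from the same libraries. Of 13 members spanning at least 20 kb 6 were higher in cardiomyocyte-like than in endothelial-like cells, and of the 73 shorter ones 4 were. Whether intronic reads took part was not tested.

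The common form Cox6a1 and the muscle form Cox6a2 were ordered differently over the classes. Cox6a1 was at 47.0, 54.9 and 53.0 CPM in cardiomyocyte-like cells and at 33.1, 35.2 and 39.4 CPM in endothelial-like cells, the next class by mean. The ratio of Cox6a2 to Cox6a1 UMIs was 5.36 (4.83 to 5.96), 6.54 (5.90 to 7.27) and 5.46 (4.95 to 6.04) in cardiomyocyte-like cells. It was 17.7 (14.9 to 21.2), 19.4 (16.0 to 23.7) and 14.5 (11.4 to 18.7) in endothelial-like cells. In the Ankrd1/Xirp2 cluster it was 12.5 (8.63 to 18.6), 29.5 (19.7 to 46.4) and 25.8 (17.9 to 38.5). Endothelial-like cells thus had a higher ratio of muscle to common form than the cardiomyocyte-like class in each library. Their ratio was lower than that of the Ankrd1/Xirp2 cluster in both mutants, but the intervals overlapped.

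Restricted forms gave the sharpest class patterns. Cox4i2 (chromosome 2, 152754173 to 152765037, plus strand, mm10) was at 71.9 (56.4 to 90.2), 79.7 (61.7 to 101) and 103 (81.5 to 129.5) CPM in pericyte-like cells, the mural cells of small vessels. The next highest mean of the 8 classes was 5.19 CPM, and all 3 pericyte-like values lay above every other class. The ratio of Cox4i2 to Cox4i1 UMIs was 0.220 (0.168 to 0.283), 0.185 (0.140 to 0.240) and 0.341 (0.259 to 0.444) there, and at most 0.0421 in any other of the 8 classes. Ndufa4l2 (chromosome 10, 127514967 to 127517154, plus strand) was at 66.1 (51.3 to 83.7), 92.8 (73.3 to 116) and 88.5 (68.3 to 113) CPM in the same cells. Of the 8 classes fibroblast-like cells came next with 9.78, 13.5 and 12.7 CPM. Smooth muscle-like cells, too few to be compared, had 15.6, 18.5 and 98.2 CPM from 6, 2 and 9 UMIs. Neither gene reached 1.5-fold between a mutant and WT in pericyte-like cells. Cox4i2 was 1.44-fold (1.03 to 2.01) in Prkag2-p.R299Q and 1.11-fold (0.784 to 1.56) in Myh6-R404Q relative to WT.

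Cox6b2 (chromosome 7, 4751792 to 4753094, minus strand) was at 26.4 (19.0 to 35.7), 27.8 (22.8 to 33.6) and 20.8 (14.7 to 28.5) CPM in mesothelial-like cells. Of the 8 classes macrophage-like cells followed with 4.59, 10.4 and 4.39 CPM, below each mesothelial-like value. The ratio of Cox6b2 to Cox6b1 UMIs was 0.243, 0.349 and 0.233 in mesothelial-like cells. Cox7b2 (chromosome 5, 71442824 to 71548205, minus strand) had 106, 87 and 43 UMIs in cardiomyocyte-like cells, or 11.7, 11.4 and 4.79 CPM. The other 7 classes gave at most 4 UMIs each per library. Its level in Prkag2-p.R299Q was 0.410-fold (0.281 to 0.590) of WT and 0.422-fold (0.286 to 0.614) of Myh6-R404Q, but it lies under the 20 CPM needed to be counted as measured.

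**Figure D3:**
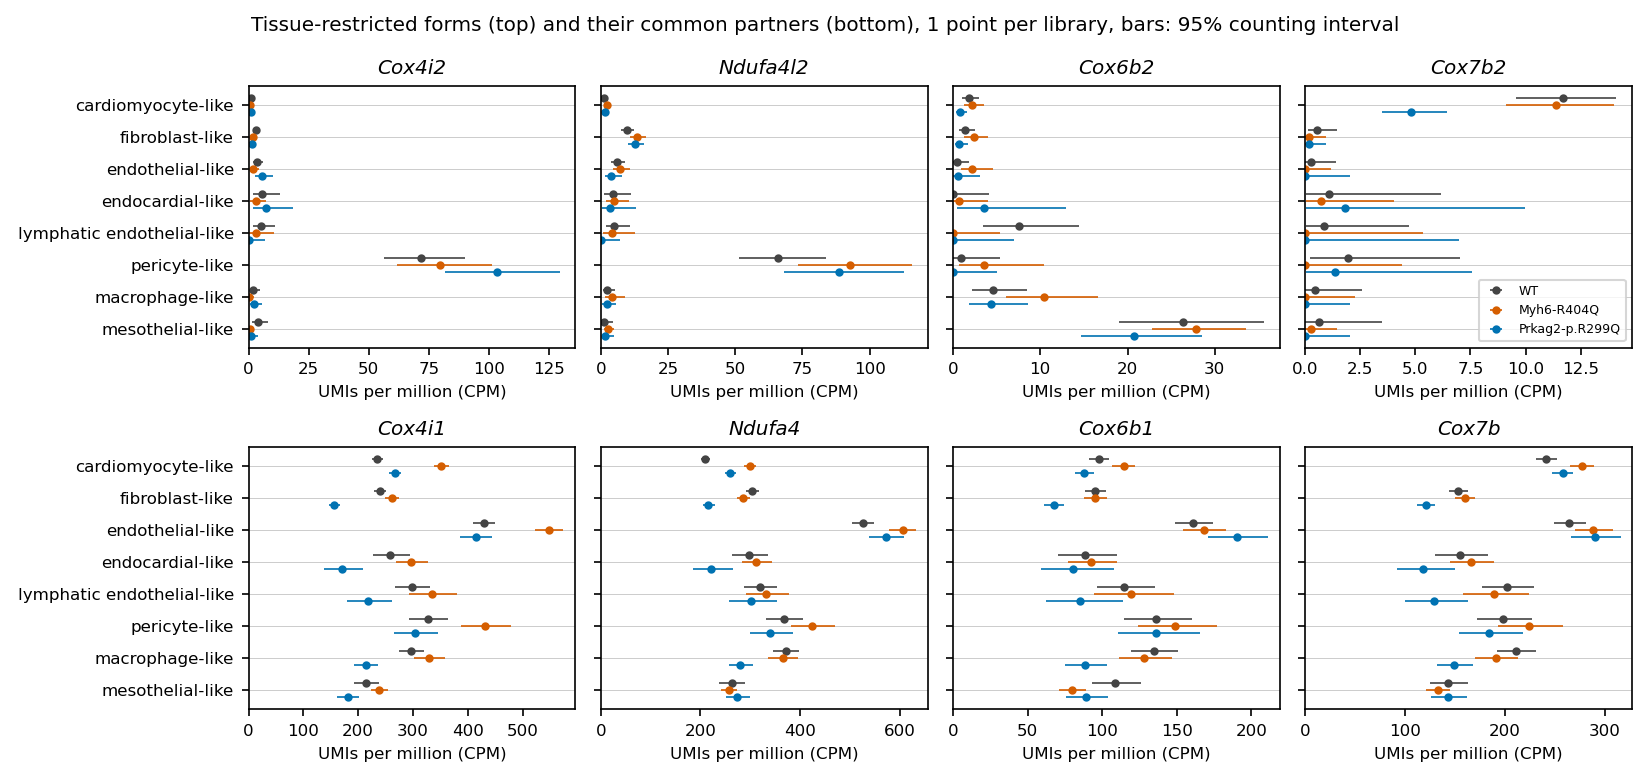
Levels of restricted forms (top) and of their common partners (bottom) in CPM by cell class, 1 point per library with its 95% counting interval, on linear axes from 0. Cox4i2 and Ndufa4l2 stand out in pericyte-like, Cox6b2 in mesothelial-like and Cox7b2 in cardiomyocyte-like cells, while the common partners are present in all 8 classes.

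In cardiomyocyte-like cells most members were slightly higher in Myh6-R404Q than in WT. The median log2 ratio of the 86 measured members was 0.30 (bounds 0.16 and 0.45, the medians of the members' own interval bounds), and 81 of 86 were above 0. Over the 6208 genes measured in these cells the median was 0.071, with 60.4% above 0. A member at least 1.5-fold apart, with an interval that leaves out 1, is called higher or lower. There were 9 called higher and 0 lower, beside 6.99% and 2.48% of all genes. The share of members called higher was near that of all genes, and the pattern is a small difference in many members. With no doublets removed 4 members were called, and with each cell thinned to 1000 UMIs 30 were. The share of all genes called was not counted under these settings, so neither count can be read as a trait of the members.

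The members called higher belonged to complexes I, III and IV. As their share was near that of all genes, they are listed for their values and not as a trait of these complexes. The set changed with the processing, as given below. Ndufb11, a membrane arm subunit of complex I, was at 34.4 (30.7 to 38.4), 63.5 (58.0 to 69.4) and 48.4 (43.9 to 53.1) CPM. It was 1.85-fold (1.60 to 2.14) in Myh6-R404Q relative to WT, the largest ratio of the 86. Cox5b, a nuclear subunit of complex IV, was at 43.7, 77.5 and 57.5 CPM, 1.77-fold (1.56 to 2.02). For both genes WT was lowest and Prkag2-p.R299Q lay between. Ndufb9, an accessory subunit, was at 98.9, 167 and 122 CPM, 1.69-fold (1.55 to 1.85). Uqcrb, a subunit of complex III near the quinone site, was at 64.2, 107 and 89.5 CPM, 1.66-fold (1.49 to 1.85). Ndufa13, Ndufa11, Cox5a, Ndufs7 and Ndufb8 were called too, none over 1.57-fold. Ndufs7 carries an iron-sulfur cluster next to the quinone site and was at 53.9, 80.9 and 58.2 CPM, with WT again lowest.

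By complex, the median log2 ratio of Myh6-R404Q over WT was 0.28 for complex I (41 measured), 0.15 for complex II (4), 0.31 for complex III (9), 0.43 for complex IV (15) and 0.30 for complex V (17). All measured members of complexes II to V were above 0, the lowest being Atp5k at 0.0032. Atp5a1, the alpha subunit of the head of ATP synthase, was at 366 (354 to 379), 516 (500.4 to 533) and 407 (394 to 421) CPM. Atp5b, the catalytic beta subunit, was at 274, 411 and 318 CPM, a log2 ratio of 0.58 and just under 1.5-fold. Sdha, the flavoprotein of complex II, was at 295, 335 and 282 CPM, 1.14-fold (1.08 to 1.20). The muscle forms Cox6a2, Cox7a1 and Cox8b had log2 ratios of 0.51, 0.26 and 0.53.

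The 5 measured members below 0 were all of complex I. The assembly factors Ndufaf5 and Ndufaf4 lay lowest, at -0.43 and -0.42. Ndufs4 was at -0.11, Ndufs3 at -0.057 and Ndufv2 at -0.00090. In the same cells the sarcomere list had a median of -0.064. Malat1, an RNA retained in the nucleus, was at 59232, 59566 and 82448 CPM.

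In Prkag2-p.R299Q cardiomyocyte-like cells the members lay near WT as a group. The median log2 ratio was 0.090 (bounds -0.056 and 0.22), with 59 of 86 above 0. There were 0 called higher and 0 lower, beside 2.5% and 1.8% of all genes. Ndufb11 was again highest, at 0.48, and Ndufa3, a small accessory subunit, lowest, at -0.32. Complex IV had a median of 0.18 and complex II one of -0.025. Against Myh6-R404Q the median was -0.24 (bounds -0.37 and -0.098), with 5 of 86 above 0, where all genes had -0.11. There were 0 called higher and 0 lower, beside 1.3% and 4.51% of all genes. Ndufv1, the NADH-binding subunit, was lowest at 0.693-fold (0.625 to 0.768), with 83.5, 109 and 75.4 CPM. With each cell thinned to 1000 UMIs the median against WT was 0.43 with 25 members called, and that against Myh6-R404Q was 0.010. The share of all genes called with thinned cells was not counted, so that count cannot be read as a trait of the members. The comparisons share libraries, so their values are not independent.

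**Figure D4:**
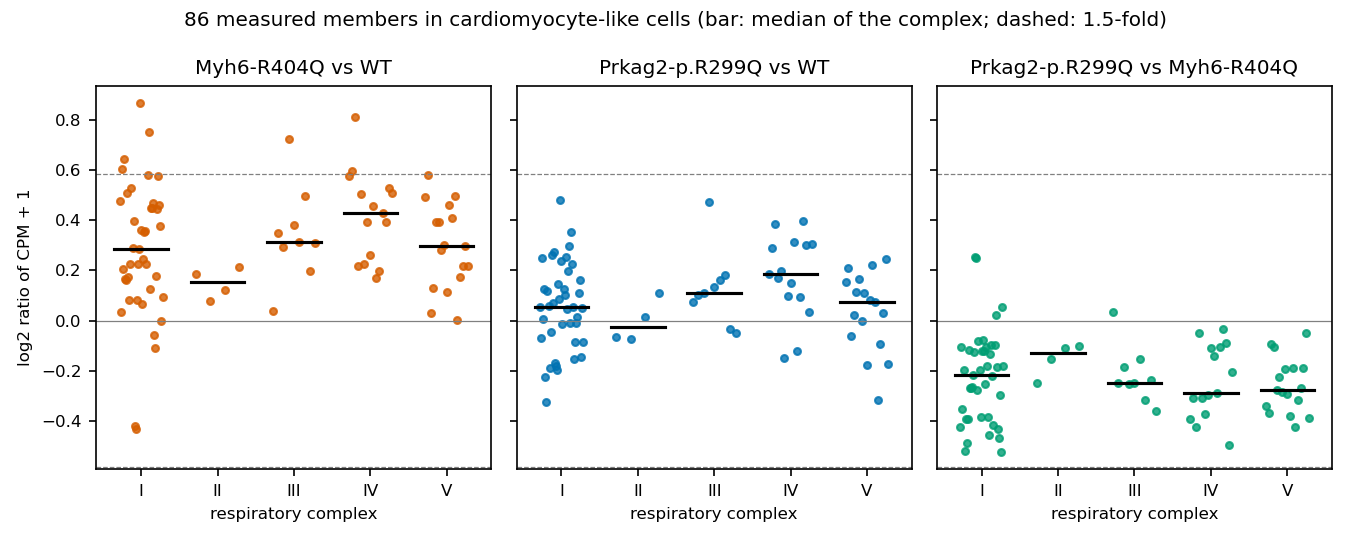
Log2 ratio of CPM + 1 for the 86 members measured in cardiomyocyte-like cells, by respiratory complex, in the 3 comparisons; bars are medians of a complex and dashed lines mark 1.5-fold. Of 86 points 81 lie above 0 for Myh6-R404Q against WT and 5 for Prkag2-p.R299Q against Myh6-R404Q.

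The mitochondrially encoded subunits, transcribed inside the organelle, had other values. Their 13 genes had a median log2 ratio of -0.091 in Myh6-R404Q against WT, with 0 called higher and 0 lower. In Prkag2-p.R299Q against WT the median was -0.45, with 4 of 13 called lower. The complex I subunit mt-Nd5 was at 330.2, 289 and 166 CPM, 0.503-fold (0.472 to 0.535) in Prkag2-p.R299Q relative to WT. In Prkag2-p.R299Q Malat1 was higher as well, at 82448 CPM against 59232 in WT, and the part of nuclear RNA in these ratios was not tested.

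Other mitochondrial lists had smaller medians than the members in the comparison of Myh6-R404Q with WT. The tricarboxylic acid cycle list had 0.17 over 18 measured genes. Idh2, the NADP-dependent isocitrate dehydrogenase of mitochondria, was at 294, 502 and 311 CPM, 1.71-fold (1.63 to 1.80). The transport and energy transfer list had 0.18 over 17 genes. Etfdh, which feeds electrons from fat oxidation to quinone, was at 71.4, 119.6 and 84.9 CPM, 1.68-fold (1.51 to 1.86). Atpif1, an inhibitor of ATP synthase, was at 28.4, 47.5 and 32.4 CPM, 1.67-fold (1.42 to 1.97). Assembly factors outside the symbol rule had a median of 0.066 over 19 genes, and regulators of mitochondrial gene expression one of -0.15 over 12. Ppargc1a, a coactivator of mitochondrial genes, was at 944, 749 and 984 CPM. In Prkag2-p.R299Q against WT these 4 lists had medians of -0.027, 0.057, -0.099 and -0.098.

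The cardiomyocyte-like class held 2 clusters with different member levels. The cluster led by Mhrt and Rbm20 had 1713, 1072 and 904 cells at medians of 4349, 6000 and 8030 UMIs. Its members summed to 8457, 9746 and 8049 CPM. The other cluster had 405, 306 and 276 cells at medians of 848, 855 and 912 UMIs. It is named here for Ankrd1 and Xirp2, genes known from stressed muscle, while its first genes were Acta1, Ankrd23 and Nppb. Its members summed to 24346, 44409 and 49633 CPM, the highest of the classes and clusters compared, with WT lowest. Its sarcomere genes summed to 59830, 108596 and 136203 CPM and Malat1 was at 40461, 24808 and 18118 CPM, so muscle messenger RNA was higher and a nuclear RNA lower in both mutant libraries.

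In the Ankrd1/Xirp2 cluster the median log2 ratio of 88 measured members was 0.88 for Myh6-R404Q against WT (bounds 0.45 and 1.20), with 70 called higher and 1 lower, beside 11.1% and 12.1% of all genes. For Prkag2-p.R299Q against WT it was 1.02 (bounds 0.70 and 1.39), with 74 called higher and 1 lower, beside 11.8% and 17.3% of all genes. The members' share called higher was far above that of all genes in both, but the genes were not matched on level. The cluster held 402489, 367537 and 354787 UMIs, so genes near 20 CPM had few UMIs and were hard to call. The part of this in the gap was not tested. Cox6a2 was at 959, 1929 and 2179 CPM and Atp5a1 at 1103, 2166 and 2272 CPM, WT lowest. Between the mutants the median was 0.15, with 0 called higher and 1 lower, beside 3.8% and 6.66% of all genes. The sarcomere list moved with the members in this cluster, at 0.69 and 0.83 against WT, and its part in their medians was not tested. In the Mhrt/Rbm20 cluster the median for Myh6-R404Q against WT was 0.20 over 85 members, with 4 called higher and 0 lower, beside 6.59% and 2.58% of all genes. The 4 called higher were Cox5b, Uqcrb, Ndufb9 and Ndufb11. For Prkag2-p.R299Q against WT it was -0.091, with 0 called higher and 0 lower, beside 2.59% and 1.94% of all genes. Between the mutants it was -0.29, with 0 called higher and 3 lower, beside 1.27% and 5.07% of all genes.

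**Figure D5:**
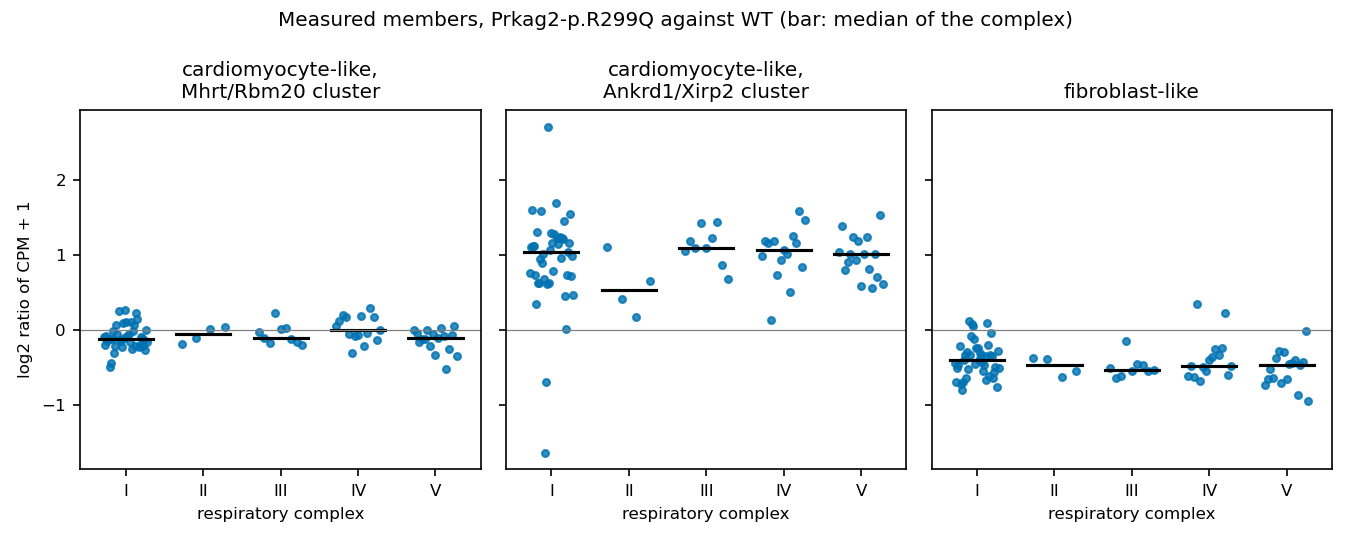
Log2 ratio of CPM + 1, Prkag2-p.R299Q against WT, for the measured members of each respiratory complex in both cardiomyocyte-like clusters and in fibroblast-like cells; bars are medians of the complex. The medians over all measured members are -0.091, 1.02 and -0.46 from left to right.

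Ndufaf4, an assembly factor of complex I, differed from most members. In the Ankrd1/Xirp2 cluster it was the member called lower in each of the 3 comparisons, at 186 (147 to 234), 109 (77.8 to 148) and 59.2 (36.6 to 90.5) CPM. That is 0.584-fold (0.388 to 0.868) of WT in Myh6-R404Q and 0.318-fold (0.186 to 0.521) in Prkag2-p.R299Q. In cardiomyocyte-like cells as a class it was at 191, 143 and 169.9 CPM, 0.745-fold (0.690 to 0.805) in Myh6-R404Q. It was called lower in both mutants also in endothelial-like cells, at 60.2, 34.9 and 29.4 CPM, and in macrophage-like cells, at 50.5, 25.7 and 27.5 CPM. WT was highest in each of these. In endocardial-like cells, at 36.5, 36.8 and 52.0 CPM, WT was not.

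In fibroblast-like cells the members were lower in Prkag2-p.R299Q than in WT. They summed to 9147, 8672 and 6604 CPM. The class pooled clusters in unlike parts. The cluster led by Col8a1 held 2028, 956 and 388 cells, and the one led by Has2os and Pi16 1317, 939 and 1075. The one led by Fbn2 held 990, 996 and 775 cells. Median UMIs per cell of the class were 1532, 1905 and 2522.5. The part of this mix and of depth in the member ratios was not tested. The median log2 ratio for Prkag2-p.R299Q against WT was -0.46 (bounds -0.64 and -0.27) over 87 measured members, with 6 above 0. There were 0 called higher and 23 lower, beside 2.19% and 4.44% of all genes. Atp5o, of the stalk of ATP synthase, was at 136, 101 and 69.4 CPM, 0.512-fold (0.455 to 0.576). Atp5a1 was at 362, 325 and 218 CPM, 0.602-fold (0.563 to 0.644). The muscle form Cox6a2 was at 348, 318 and 216 CPM, 0.620-fold (0.579 to 0.664). The sarcomere list had a median of -0.84 in the same cells, with 10 of 12 called lower, so sarcomere RNA moved with this result and its part was not tested. Cox6a1, the common form, had the highest ratio, 1.28-fold (1.04 to 1.58). For Myh6-R404Q against WT the median was -0.051, with 0 called higher and 1 lower, beside 3.01% and 3.57% of all genes. The member called lower was Atp5k. With the Ankrd1/Xirp2 profile subtracted as free muscle RNA this median was -0.49. Prkag2-p.R299Q against Myh6-R404Q gave -0.38, with 0 called higher and 8 lower, beside 1.76% and 2.67% of all genes. That median was 0.025, on the other side of 0, after the same subtraction.

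Macrophage-like cells also had lower members in Prkag2-p.R299Q than in WT. The median was -0.39 (bounds -0.67 and -0.067) over 86 members, with 0 called higher and 18 lower, beside 3.7% and 7.11% of all genes, and the sarcomere list was at -0.65. For Myh6-R404Q against WT it was -0.059, with 0 called higher and 2 lower, beside 6.5% and 6.42% of all genes. Those called lower were Ndufaf4 and Ndufa3. Between the mutants it was -0.30, with 0 called higher and 7 lower, beside 3.23% and 5.34% of all genes. With the Ankrd1/Xirp2 profile subtracted these medians were -0.65 for Prkag2-p.R299Q against WT, -0.46 for Myh6-R404Q against WT and -0.071 between the mutants. Atp5a1 was among those called lower in both comparisons of Prkag2-p.R299Q, at 452, 426 and 281 CPM.

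Endocardial-like cells line the heart chambers. Their median for Prkag2-p.R299Q against WT was -0.41, with 0 called higher and 17 lower, beside 3.8% and 5.36% of all genes, and the sarcomere list was at -0.81. For Myh6-R404Q against WT it was 0.047, with 2 called higher and 2 lower, beside 5.08% and 4.85% of all genes. Between the mutants it was -0.39, with 0 called higher and 22 lower, beside 3.05% and 4.57% of all genes. Lymphatic endothelial-like cells had -0.38 (bounds -0.86 and 0.19) for Prkag2-p.R299Q against WT, with 1 called higher and 19 lower, beside 3.76% and 5.56% of all genes, and the sarcomere list at -0.89. The member called higher was Cox8a. For Myh6-R404Q against WT they had -0.062, with 4 called higher and 5 lower, beside 5.02% and 4.38% of all genes. Between the mutants they had -0.25, with 0 called higher and 12 lower, beside 2.46% and 4.31% of all genes. In both classes the bounds held 0 while the share of members called lower was above that of all genes in each comparison of Prkag2-p.R299Q.

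Endothelial-like cells, with the highest member levels, had medians whose direction turned with the treatment of free muscle RNA. As counted, the median for Prkag2-p.R299Q against WT was 0.025, with 0 called higher and 1 lower, beside 2.9% and 3.65% of all genes, and the sarcomere list was at -0.10. For Myh6-R404Q against WT it was 0.15, with 2 called higher and 1 lower, beside 2.55% and 3.53% of all genes. The members called higher were Atp5f1, of the stalk of ATP synthase, and Ndufb4, an accessory subunit of complex I. Between the mutants it was -0.14, with 0 called higher and 0 lower, beside 1.46% and 1.9% of all genes. With free muscle RNA subtracted on the cardiomyocyte-like profile, the median for Myh6-R404Q against WT was -0.14 and that between the mutants 0.13. With the Ankrd1/Xirp2 profile they were -0.61 and 0.33, and Prkag2-p.R299Q against WT gave -0.27.

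Pericyte-like cells had 0.21 for Myh6-R404Q against WT over 89 members, with 6 called higher and 0 lower, beside 4.35% and 3.9% of all genes, and the sarcomere list at 0.22. For Prkag2-p.R299Q against WT they had -0.17, with 1 called higher and 6 lower, beside 3.85% and 4.43% of all genes. Between the mutants they had -0.40, with 1 called higher and 20 lower, beside 2.65% and 4.26% of all genes, and the sarcomere list at -0.58. Ndufaf4 was the member called higher there, at 69.0, 46.4 and 79.0 CPM.

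In mesothelial-like cells the medians were -0.029 for Myh6-R404Q and -0.083 for Prkag2-p.R299Q against WT over 85 members. For Myh6-R404Q against WT there were 2 called higher and 0 lower, beside 5.83% and 3.79% of all genes. For Prkag2-p.R299Q against WT there were 3 called higher and 1 lower, beside 5.65% and 3.26% of all genes, and between the mutants 0 called higher and 0 lower, beside 2.78% and 2.93% of all genes. Cox6a1 and Cox8a were called higher in both mutants, Ndufa1 in Prkag2-p.R299Q, and Sdhc lower there. Cox8a, the common form of subunit 8, was at 57.2 (46.0 to 70.2), 98.1 (88.4 to 108) and 101 (86.6 to 116) CPM, 1.72-fold (1.36 to 2.18) in Myh6-R404Q and 1.76-fold (1.36 to 2.29) in Prkag2-p.R299Q relative to WT. Cox6a1 was at 23.9, 36.4 and 41.0 CPM, 1.53-fold (1.06 to 2.24) and 1.72-fold (1.15 to 2.61). The ratio of the muscle form Cox8b to Cox8a UMIs was 1.23 (0.925 to 1.64), 0.562 (0.473 to 0.667) and 0.495 (0.380 to 0.639), and that of Cox6a2 to Cox6a1 was 11.6, 6.34 and 4.73. For both subunits the common form made up more of the pair in the mutants, beside sarcomere medians of -0.30 and -0.67. This was not particular to mesothelial-like cells. In fibroblast-like cells the ratios were 1.75, 1.36 and 0.982 for Cox8b and 13.8, 10.8 and 6.65 for Cox6a2. Other classes differed, with 1.62, 1.73 and 1.27 for Cox8b in macrophage-like and 16.7, 12.2 and 18.1 for Cox6a2 in pericyte-like cells. The part of muscle RNA in these ratios was not tested.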

How the data were processed

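Per the labels' protocols, libraries were built with the Single Cell 3-prime gel bead kit, version 3. Per the submitters' processing notes, reads were processed with Cell Ranger 7.0.1 on mm10. The files the authors deposited hold UMI counts, not normalized. Whether intronic reads were counted is not given in the sources used here.

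A barcode was kept with 500 or more UMIs, 300 or more genes and no more than 20% mitochondrial UMIs (WT 18033 barcodes, Myh6-R404Q 12661, Prkag2-p.R299Q 7951). Scrublet in scanpy 1.11.5 called 3202, 2106 and 1111 doublets, which were removed. Cells were clustered with leidenalg 0.10.2 at resolution 0.8 on 30 components of 2000 variable genes. Clusters were named from marker lists (score at least 0.5, at least 3 markers detected). A near tie between 2 names, under 0.5, left a cluster unnamed, a rule added after the clusters had been seen; it touched 35 cells.

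UMIs were summed per class and library. A pseudocount of 1 CPM went into each log2 ratio, and folds had exact conditional binomial intervals, and CPM had exact Poisson intervals. The bounds given beside a median are the medians of the members' interval bounds. The calling rule was run on simulated counts that held counting error alone. Such a run cannot show how the rule does with differences between animals or libraries. Members were named if they belonged to an isoform family, held a redox or catalytic site, were called, were among the 3 highest of their complex, or had the highest or lowest ratio of a class. Other genes were named if they were among the 4 highest of their list or called. The members and lists were chosen with earlier results of these data known. Coordinates are from GENCODE release 21 on mm10. Alternatives covered depth, doublets, clustering, scaling, filters, the pseudocount and free muscle RNA. Free RNA was not removed in the values reported.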

Additional observations from a re-analysis of the deposited data

Results flagged for a closer look

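For Prkag2-p.R299Q against WT the members lay on opposite sides of 0 in different cells, with bounds that left out 0 in each. The median log2 ratio was 1.02 in the Ankrd1/Xirp2 cluster of cardiomyocyte-like cells, where 86 of 88 measured members were above 0. It was -0.46 in fibroblast-like cells, where 6 of 87 were above 0, and -0.39 in macrophage-like cells, where 8 of 86 were. The difference between these cells was not tested. The sarcomere list had medians of 0.83, -0.84 and -0.65 in them, and its part in the member medians was not tested.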

How the results depend on the processing

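No paired analysis was possible because each genotype has 1 library, and for the same reason no replicate could be left out. Under the alternatives 172 values of the main results stayed within the bounds, or within 1.5 times the count, of the value reported. Another 27 moved outside, and 3 turned to the other side of 0 from bounds that left it out. These others follow. In cardiomyocyte-like cells the median log2 ratio for Myh6-R404Q against WT was 0.13 with that matrix as deposited and 0.88 in the Ankrd1/Xirp2 cluster alone. For Prkag2-p.R299Q against WT it was 0.43 with each cell thinned to 1000 UMIs, -0.091 in the Mhrt/Rbm20 cluster alone and 1.02 in the Ankrd1/Xirp2 cluster alone. Between the mutants it turned to 0.010 with thinned cells and 0.15 in the Ankrd1/Xirp2 cluster alone, and was -0.044 with the matrix as deposited. Thinning left out cells under 1000 UMIs and weighed the others alike. The 9 members called for Myh6-R404Q against WT became 30 with thinned cells, 0 with the matrix as deposited, 4 with no doublets removed, 5 with doublets removed at a fixed rate, 4 with ratios scaled by the median gene, and 4 or 71 in the Mhrt/Rbm20 or Ankrd1/Xirp2 cluster alone. The 0 called for Prkag2-p.R299Q against WT became 25 with thinned cells, 1 with no level filter (Cox7b2) and 75 in the Ankrd1/Xirp2 cluster alone. Those between the mutants became 2 with no level filter (Cox7b2 and Cox6b2), and 3 or 1 in the Mhrt/Rbm20 or Ankrd1/Xirp2 cluster alone. Apart from the single clusters, the share of all genes called was not counted under these alternatives. With free muscle RNA subtracted on the cardiomyocyte-like profile, medians were -0.17 in fibroblast-like cells and 0.13 in endothelial-like cells between the mutants, and -0.14 in endothelial-like cells for Myh6-R404Q against WT. With the Ankrd1/Xirp2 profile as source, Myh6-R404Q against WT gave -0.49 in fibroblast-like, -0.61 in endothelial-like and -0.46 in macrophage-like cells. Prkag2-p.R299Q against WT then gave -0.27 in endothelial-like cells, and between the mutants 0.025 in fibroblast-like cells and 0.33 in endothelial-like cells. The cause of these shifts was not tested. The single-cluster settings and the Ankrd1/Xirp2 source were chosen after seeing the data. Allowing the members among the variable genes was no test, since 0 members entered and the clusters were the same. Its values could not differ and are among the 172. The UMIs of a member limit its precision.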

Other observations

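Classes with under 200 cells in a library were not compared, and their values for the restricted forms are given here in the order WT, Myh6-R404Q, Prkag2-p.R299Q. In smooth muscle-like cells, the mural cells of larger vessels, Cox4i2 had 9, 6 and 3 UMIs, or 23.5, 55.5 and 32.7 CPM. Ndufa4l2 had 6, 2 and 9 UMIs there, or 15.6, 18.5 and 98.2 CPM. Cox6b2 had 5 UMIs in cycling cells of Myh6-R404Q and 3 in T and NK-like cells of WT. Cox7b2 had 0 UMIs in each named small class and library.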
